A study of Mus musculus with 12 samples.

Results

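Negative regulators of T cell receptor (TCR) signalling were taken as 10 genes chosen by name: *Cd5*, *Cd6*, *Ptpn22*, *Ptpn6*, *Ptpn2*, *Cbl*, *Cblb*, *Dgka*, *Dgkz* and *Ubash3a*. All 10 were among the 25860 genes of the RNA-seq table, and 30 of the 23932 listed ATAC-seq peaks carried one of their names. RNA-seq (expression) and ATAC-seq (chromatin accessibility) were performed on CD8+ T_prog_ cells, the stem-like progenitors, sorted from pancreatic lymph nodes of female mice on the NOD background. All mice carried the transgenic 8.3 TCR, which recognizes the β cell antigen IGRP. In UTX TCD mice, Cre driven by the T cell promoter of *Lck* removed floxed UTX (*Kdm6a*), a histone demethylase, and Cre-negative WT mice served as controls. Each genotype had 3 libraries per assay, described as 3 mice per group. According to the labels, sorted cells were Ly108+ and lacked CXCR6, whereas the methods of the study describe a Ly108+CD39- gate. The age of these mice and whether each library came from a single mouse are not stated in the sources used here, so p-values measure only the spread between these libraries.

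TCR engagement activates the kinases LCK and ZAP70, which phosphorylate adaptors and lead to calcium entry, diacylglycerol and RAS signals. The negative regulators act at successive steps of this cascade. CD5 and CD6 are surface receptors that recruit inhibitory enzymes, the phosphatases encoded by *Ptpn22*, *Ptpn6* and *Ptpn2* remove activating phosphates, CBL and CBL-B are ubiquitin ligases that mark signalling proteins for removal, the diacylglycerol kinases encoded by *Dgka* and *Dgkz* consume diacylglycerol, and UBASH3A (STS-2) dampens signalling downstream of the receptor. In autoimmune T cells these brakes are studied because loss of several of them lowers the threshold for activation.

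The question behind the comparison was how T_prog_ cells differ without UTX. Reads counted in genes were recovered by dividing the normalized counts by each library's smallest step. They summed to 146456724, 144503203 and 193568919 in the WT libraries and 61512402, 175462433 and 187275082 in the UTX TCD libraries. WT replicate 1 did not pass the check on recovered reads that is described with the processing. The targeted gene *Kdm6a* had 28365, 28949 and 29172 normalized counts in WT and 24159, 24792 and 24579 in UTX TCD. It was lower in all 3 UTX TCD libraries, by a log2 fold change of -0.23 ± 0.04 (SE; limma adjusted p = 0.00114). Counts per gene do not resolve the floxed part of the transcript. The CD8+ T cell and progenitor markers *Cd8a*, *Cd8b1*, *Cd3e*, *Tcf7* and *Slamf6* were abundant in every library, with group means from 28378 to 298501 normalized counts. Of these, *Cd8b1* fell (log2 fold change -0.37, limma adjusted p = 0.00634) and *Cd3e* rose (0.17, limma adjusted p = 0.0414), whereas the others did not pass the adjusted p. *Entpd1*, which encodes CD39, was close to 0, at 11, 29.6 and 11.4 in WT and 4.50, 12.8 and 4.42 in UTX TCD (log2 fold change -1.15, limma adjusted p = 0.131). *Cxcr6* mRNA was present in both genotypes, at 12757, 9619 and 13724 in WT and 5286, 5994 and 5695 in UTX TCD (log2 fold change -1.07 ± 0.12, limma adjusted p = 0.000131).

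WT replicate 2 stood apart from the other WT libraries for genes induced by antigen. Of 12 antigen response genes, 11 were highest in WT replicate 2 among the WT libraries, and 10 were highest in replicate 3 among the UTX TCD libraries. *Irf4*, for example, had 2046, 3366 and 2097 normalized counts in WT and 3541, 3440 and 4267 in UTX TCD. The margin was small for *Cd69*, at 1.033 times the WT median. Such a count was not made over all tested genes. Over all of them, chi-square per gene of recovered reads (larger means less alike) was 72.46 between WT replicates 1 and 2. It was 110.4 between WT replicates 2 and 3, and 29.16 between 1 and 3, so WT replicate 2 also stood apart more widely. The result for *Ptpn22* turned on WT replicate 2 and is given with and without it, as is that for *Dgka*, which lost the adjusted p without any 1 of 4 libraries, WT replicate 2 among them.

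None of the 10 negative regulators passed both limits of a call, a log2 fold change above 0.5 in size and an adjusted p below 0.05, whereas 2538 of 14459 tested genes did (17.6%). By adjusted p alone, 3 of the 10 passed, beside 40.7% of all tested genes. *Dgka* rose (1 gene, beside 20.2% of all genes in that direction), and *Ptpn2* and *Cd6* fell (2 genes, beside 20.5%). At an unadjusted p under 0.05 there were 4 of 10, the fourth being *Cd5*, beside 49.1% of all tested genes. The genotypes did not overlap for 2 genes that were higher and 2 that were lower in UTX TCD, beside 51.9% of all tested genes in either direction. All 10 genes passed the filter on low values. Past the adjusted p were 2 of the 10 without WT replicate 1, 1 without WT replicate 3 or UTX TCD replicate 1 or 2, and 4 without UTX TCD replicate 3, and *Ptpn2* was among them each time. With the libraries scaled to the same sum, *Cd6* no longer passed and *Cbl* did, and the genes past the adjusted p shifted from 2924 higher and 2963 lower to 3793 higher and 2184 lower. The edgeR and DESeq2 tests on 5 libraries each called 0 of the 10 and left *Ptpn2* and *Dgka* past the adjusted p.

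The differences were small. The median log2 fold change was -0.0006 over the 10 genes and -0.0002 over all tested genes, and the median absolute value was 0.11 over the 10 and 0.21 over all. The 95% intervals of the 10 log2 fold changes lay between -0.40 and 0.55. In this bulk RNA, a smaller share of cells with a transcript and less of it per cell cannot be told apart.

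**Figure D1:**
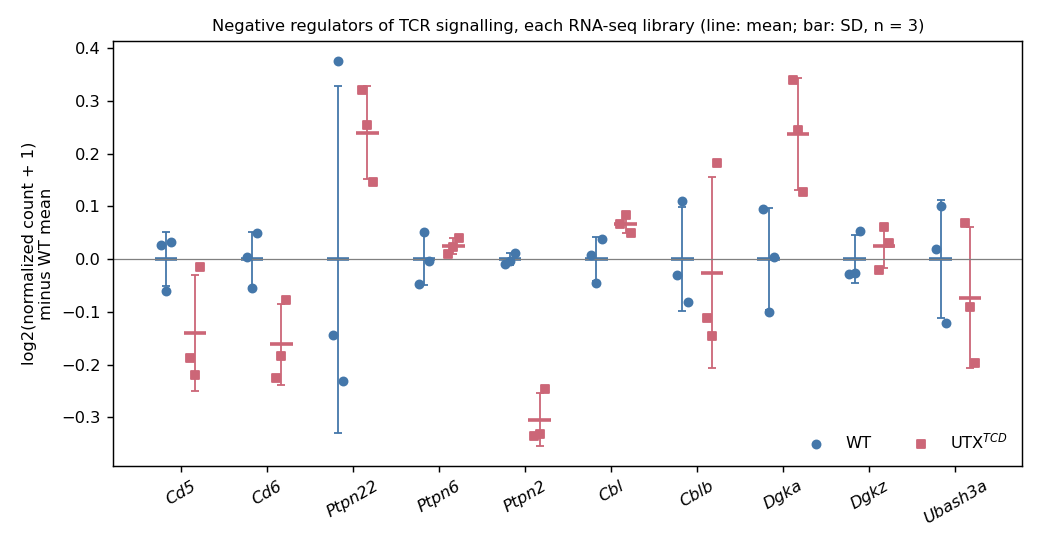
Expression of the 10 negative regulators in each RNA-seq library, as log2(normalized count + 1) minus the WT mean of the gene. Circles are WT and squares UTX TCD libraries, lines are means and bars SD (n = 3 per genotype). The genotypes are apart for *Ptpn2*, *Cd6*, *Dgka* and, by a small margin, *Cbl*, and WT replicate 2 lies far above the other WT libraries for *Ptpn22*.

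Per kb of exon, the brakes spanned a wide range of levels in WT. Exon length was the union over all RefSeq isoforms of a gene, so these levels and their order depend on the annotated isoforms. *Dgka* led with 64015 ± 4298 normalized counts per kb (SD, n = 3), followed by *Ptpn6* at 20219 ± 692, *Cd5* at 14233 ± 505 and *Cd6* at 12653 ± 459. *Ptpn22*, *Dgkz* and *Cbl* came next, and *Cblb* at 2765 ± 192 and *Ubash3a* at 2670 ± 205 per kb did not differ beyond their spread. *Ptpn2* was lowest at 1566 ± 11.8. The order of mean levels per kb was the same in UTX TCD, from *Dgka* at 75469 ± 5535 to *Ptpn2* at 1269 ± 44.8. By mean normalized count without regard to length, 99.8% of the tested genes lay below *Dgka* and 80.3% below *Ptpn2*.

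Among the surface receptors, *Cd6* fell and *Cd5* did not pass the adjusted p. CD6 binds ALCAM on antigen-presenting cells and sits at the contact between the cells. *Cd6* had 38524, 37006 and 39788 normalized counts in WT and 32882, 33851 and 36437 in UTX TCD. Every UTX TCD library was below every WT library, although UTX TCD replicate 3 came within 569 counts of WT replicate 2. The log2 fold change was -0.16 ± 0.05 (limma adjusted p = 0.0315), and it lost the adjusted p in 7 of 15 alternatives (13 with limma, and edgeR and DESeq2 on 5 libraries). These were the fits without WT replicate 1 or 3 or UTX TCD replicate 1 or 2, with the libraries scaled to the same sum, and with edgeR and DESeq2, and over the 13 the limma adjusted p ran from 0.0104 to 0.128. CD5 is a scavenger-receptor protein whose level on T cells follows the strength of self-recognition. *Cd5* had 31278, 29444 and 31379 counts in WT and 26961, 26353 and 30393 in UTX TCD. UTX TCD replicates 1 and 2 lay below all WT libraries, and replicate 3 lay inside the WT range. The log2 fold change was -0.14 ± 0.06 (limma adjusted p = 0.0885), and without UTX TCD replicate 3 it was -0.20 (limma adjusted p = 0.00980, with a range of 0.00980 to 0.325 over the alternatives).

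Of the 3 phosphatases, *Ptpn2* fell and the others did not pass. PTPN2 (TC-PTP) dephosphorylates LCK and also JAK and STAT proteins of cytokine signalling. *Ptpn2* had 13131, 13173 and 13320 normalized counts in WT and 10466, 10499 and 11137 in UTX TCD. The WT libraries were close together, with an SD of 99.2 counts on a mean of 13208, and all 3 UTX TCD libraries lay well below them. With a log2 fold change of -0.30 ± 0.04 (95% interval -0.40 to -0.21, limma adjusted p = 0.000517), it stayed past the adjusted p in each of 15 alternatives. Its absolute change was the largest of the 10 with all 6 libraries and the authors' size factors, but smaller than that of *Ptpn22* without WT replicate 2 (-0.31 against 0.43) and than those of *Ptpn22* and *Dgka* with the libraries scaled to the same sum (-0.24 against 0.30 for each). The change was nonetheless inside the fold limit of a call.

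PTPN22 (PEP) acts with the kinase CSK on LCK, and variants of its human counterpart are associated with type 1 diabetes. *Ptpn22* had 47997, 68846 and 45174 normalized counts in WT and 66224, 63275 and 58667 in UTX TCD. The 3 UTX TCD libraries were above WT replicates 1 and 3 but below WT replicate 2, so the genotypes overlapped. The log2 fold change was 0.24 ± 0.14 (limma adjusted p = 0.193), and without WT replicate 2 it was 0.43 (limma adjusted p = 0.00134). Over all 15 alternatives the adjusted p ranged from 0.00134 to 0.564. PTPN6 (SHP-1) is the phosphatase recruited by many inhibitory receptors. *Ptpn6* had 51350, 54977 and 52960 counts in WT and 53412, 53964 and 54582 in UTX TCD, and the UTX TCD values lay inside the WT range. The 95% interval of its log2 fold change, 0.02, ran from -0.07 to 0.12 (limma adjusted p = 0.676).

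Neither ubiquitin ligase passed the adjusted p. *Cbl* had 42165, 40677 and 43059 normalized counts in WT and 43922, 44448 and 43443 in UTX TCD. The genotypes did not overlap, and the gap between WT replicate 3 and UTX TCD replicate 3 was 384 counts. The log2 fold change was 0.07 ± 0.04 (limma adjusted p = 0.219), and with the libraries scaled to the same sum it was 0.13 (limma adjusted p = 0.0150, with a range of 0.0150 to 0.429 over the alternatives). CBL-B restrains T cells that receive a TCR signal without costimulation. *Cblb* had 25907, 28542 and 24993 counts in WT and 24462, 23898 and 29990 in UTX TCD. UTX TCD replicate 3 was the highest and UTX TCD replicate 2 the lowest of all 6 libraries. The log2 fold change was -0.03 ± 0.09 (limma adjusted p = 0.840), with a sign that turned when any of 3 libraries was left out or the libraries were scaled to the same sum.

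Of the diacylglycerol kinase genes, *Dgka* rose and *Dgkz* did not pass the adjusted p. Diacylglycerol kinase α, the product of *Dgka*, is abundant in resting T cells and declines after activation. *Dgka* had 234618, 205079 and 220363 normalized counts in WT and 277908, 260355 and 239897 in UTX TCD. All 3 UTX TCD libraries were above the WT libraries, with replicate 3 the nearest to them. The log2 fold change was 0.24 ± 0.07 (limma adjusted p = 0.0271), a rise of 17.9% in the mean, and without WT replicate 2 it was 0.19 (limma adjusted p = 0.0739). The adjusted p was also lost without WT replicate 3 and without UTX TCD replicate 1 or 2, and ranged from 0.00144 to 0.0982 over the alternatives. *Dgkz*, whose product ζ limits RAS signals after TCR engagement, had 66626, 66712 and 70416 counts in WT and 66969, 70858 and 69359 in UTX TCD. These groups overlapped, with a log2 fold change of 0.02 ± 0.04 (limma adjusted p = 0.699). Whether the change of *Dgka* differed from that of *Dgkz* was not tested.

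*Ubash3a* had 14905, 15759 and 13518 normalized counts in WT and 15411, 13806 and 12823 in UTX TCD. The genotypes overlapped, and the log2 fold change was -0.07 ± 0.08 (limma adjusted p = 0.483). Its relative *Ubash3b* (STS-1), an active phosphatase that acts on ZAP70, had 1955, 2222 and 1874 counts in WT and 835, 884 and 949 in UTX TCD. It fell, and all 3 UTX TCD values lay below WT (log2 fold change -1.18 ± 0.09, limma adjusted p = 1.66e-05). Per kb of exon, *Ubash3a* stood at 2670 in WT and 2541 in UTX TCD normalized counts, and *Ubash3b* at 267 and 118. RefSeq genes that overlap a negative regulator are *Rsph1* at *Ubash3a* and *Pmel* at *Dgka*, with means of 140.5 and 3369 normalized counts, and a snoRNA, a miRNA and lncRNA genes at *Cblb*, *Dgka* and *Dgkz*. The strand setting of the read counting is not given in the sources used here, so reads of such pairs may be mixed.

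Relatives of the 10 genes by family were counted in the same way. Of 20 tested relatives from a list of 26, 2 were called higher and 3 lower, beside 17.6% of all tested genes called in either direction. Past the adjusted p were 5 higher and 9 lower, beside 20.2% and 20.5% of all tested genes. The kinase gene *Dgkh* rose by 0.89 ± 0.09 on the log2 scale (limma adjusted p = 6.35e-05) and *Ptpn3* by 0.79 ± 0.11 (limma adjusted p = 0.000651). *Ptpn13* fell by 1.59 ± 0.14 (limma adjusted p = 3.44e-05), *Ubash3b* fell as given above, and *Cd163*, a scavenger receptor known from macrophages, went from 425, 196 and 375 normalized counts in WT to 6.75, 11.2 and 4.42 in UTX TCD (limma adjusted p = 1.44e-05).

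Another 30 genes were listed as brakes of the cascade, and their direction of action in these cells was not tested. Among them, 1 was called higher and 4 lower, a share near the 17.6% called among all tested genes. Past the adjusted p were 8 higher and 10 lower, beside 20.2% and 20.5% of all tested genes. *Nedd4*, a ubiquitin ligase gene, rose from 11189 ± 673 to 16769 ± 340 normalized counts (SD, n = 3; log2 fold change 0.59 ± 0.05, limma adjusted p = 3.53e-05). Whether this rise strengthens or weakens a brake was not tested. *Dusp2*, which encodes a nuclear phosphatase of MAP kinases, fell from 11939 ± 1174 to 6107 ± 391 (-0.96 ± 0.08, limma adjusted p = 2.14e-05). The phosphatase gene *Ptprj* and *Ubash3b* were also called lower, as was the adaptor gene *Sla2*, whose log2 fold change of -0.51 sat at the limit. Without UTX TCD replicate 3, 2 were called lower, and with the libraries scaled to the same sum 2 were called in each direction.

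In other lists of the pathway, of 27 proximal signalling genes, 1 was called higher (*Syk*) and 1 lower (*Tec*), beside 17.6% of all tested genes. Past the adjusted p were 6 higher and 13 lower, beside 20.2% and 20.5%. *Tec*, a TEC-family kinase gene, fell from 3413 ± 364 to 1655 ± 127 normalized counts (SD, n = 3; log2 fold change -1.04 ± 0.09, limma adjusted p = 3.73e-05), and *Syk* stood at 24.0 ± 3.53 and 78.3 ± 15.8, a low level in both genotypes. Without WT replicate 2 or UTX TCD replicate 1, 2 proximal genes were called lower. Of 22 genes of the diacylglycerol and RAS arm, on which *Dgka* and *Dgkz* act, limma called 0, and 3 passed the adjusted p higher and 5 lower, beside the same shares of all tested genes (17.6% called, 20.2% and 20.5% past the adjusted p). The edgeR and DESeq2 tests on 5 libraries also called 0 of the 22, and 10 had an unadjusted p under 0.05 with limma, beside 49.1% of all tested genes. Of 12 antigen response genes, *Nr4a2* (340 ± 126 to 1030 ± 260 normalized counts) and *Irf4* (2503 ± 748 to 3749 ± 451) were called higher, again beside 17.6% of all tested genes called in either direction. The number called higher was 3 without WT replicate 2 and 1 without WT replicate 1, WT replicate 3 or UTX TCD replicate 3. With all 6 libraries, 5 of the 12 passed the adjusted p higher and 0 lower, beside 20.2% and 20.5% of all tested genes.

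**Figure D2:**
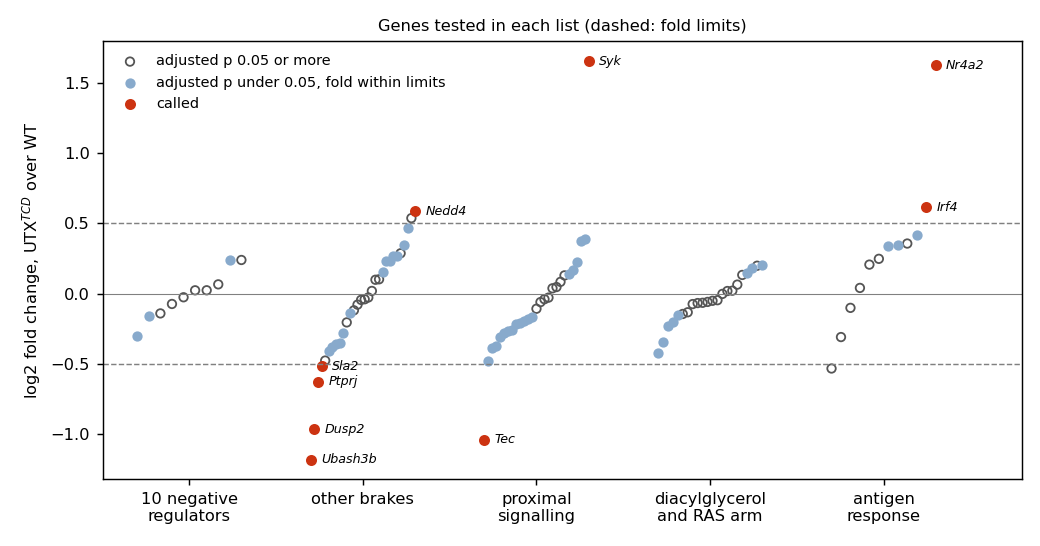
Log2 fold change of every tested gene (points) in the 10 negative regulators and in 4 lists of the same pathway, sorted within each list. Filled points passed the limma adjusted p, red points were called, and dashed lines mark the fold limits of 0.5. The 10 negative regulators lie between -0.30 and 0.24, inside the limits, and 5 of the 30 other brakes are called, beside 17.6% of all tested genes.

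Markers of other cells were counted in the same libraries. The 8 B cell markers summed to 114765, 97321 and 106744 normalized counts in WT and 96305, 91003 and 82574 in UTX TCD, almost all of it *Ighm*. Of the rest, *Cd79b* stood at 2502, 1930 and 2465 in WT, more than the other 6 together (615, 699 and 498), and at 648, 633 and 470 in UTX TCD, less than the other 6 together (819, 717 and 822). The 9 myeloid markers summed to 201, 197 and 175 in WT and 119, 124 and 111 in UTX TCD, with *S100a8* at 0 in every library. *Lyz2* led them over all 6 libraries, at 50.5, 89.8 and 38.1 in WT and 51.7, 72.9 and 53.8 in UTX TCD, whereas in WT the highest mean was that of *Fcgr3*, which went from 90.1, 54.3 and 90.0 to 15.7, 10.4 and 26.5. The 4 CD4 T cell markers, led by *Foxp3*, summed to 518, 413 and 490 in WT and 391, 382 and 369 in UTX TCD. The myeloid and CD4 sums and the B cell sum with *Ighm* and *Cd79b* were thus lower in UTX TCD. The 4 NK cell markers, led by *Eomes*, which CD8+ T cells also express, summed to 13417, 15386 and 13202 in WT and 19163, 19137 and 26932 in UTX TCD, and without *Eomes* to between 25.9 and 103. The 6 dendritic cell markers, led by *Xcr1*, ranged from 225 to 327 in sum and the 4 red cell markers, led by *Alas2*, from 163 to 309, with overlapping genotypes in both. The 5 stromal markers summed to between 29932 and 38220, nearly all of it *Pecam1*, and were higher in UTX TCD. Without *Pecam1* the sums were 942, 567 and 982 in WT and 1001, 984 and 1001 in UTX TCD. Of the markers tested, 2 of 4 CD4, 1 of 7 B cell and 2 of 4 myeloid markers were called lower, and 2 of 7 B cell and 2 of 3 NK markers were called higher, beside 17.6% of all tested genes called in either direction. The part of other cells in the results for the negative regulators was not tested.

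ATAC-seq was read from the authors' mean log2 concentration of each listed peak per genotype, so the differences (UTX TCD minus WT) carry no error and no test here. Peaks were listed after the authors' own comparison of the genotypes, and regions outside that list were not analysed here. Of the 30 listed peaks of the negative regulators, 14 were higher and 16 lower in UTX TCD, while 68.8% of all 23932 listed peaks were higher. The absolute difference exceeded 0.5 in 13 of the 30, 4 higher and 9 lower, beside 73.1% of all listed peaks. It exceeded 1 in 4, beside 29.3% of all listed peaks, and 3 of these were lower, beside 10.2% of all listed peaks that were lower by over 1. No listed peak carried the name of *Ubash3a*, although 1 peak, lower in UTX TCD, lay in or within 10 kb of its gene body.

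**Figure D3:**
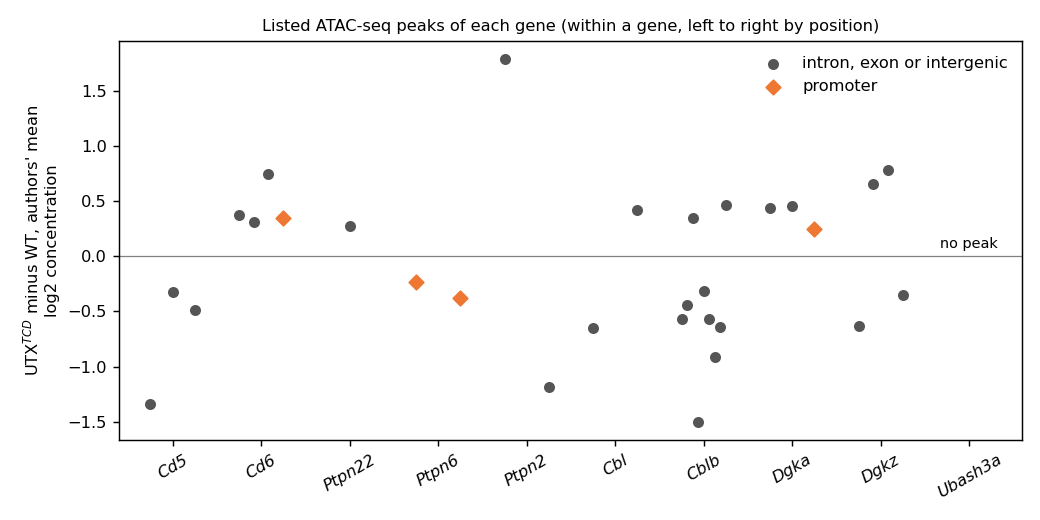
Difference in the authors' mean log2 concentration (UTX TCD minus WT) for each of the 30 listed ATAC-seq peaks of the negative regulators, ordered by position within a gene. Diamonds are promoter peaks. All 3 *Cd5* peaks and both *Ptpn6* promoter peaks lie below 0, and all peaks of *Cd6* and *Dgka* lie above it.

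*Cd5* and *Cd6* are neighbours on chromosome 19 (mm10), with 50312 bp between them, and their peaks differed in opposite directions. All 3 *Cd5* peaks were lower, the largest difference being -1.34 in a peak in intron 8 of 10 (chr19:10720990-10721390, mean log2 concentration 8.01 in WT and 6.68 in UTX TCD), which also reaches into an exon. All 4 *Cd6* peaks were higher, from 0.31 to 0.75. The largest lay in intron 1 of 11 (chr19:10816038-10816438, 7.85 and 8.60), and the peak at the promoter, 49 bp from the start site (chr19:10829809-10830209), went from 10.56 to 10.90. The higher accessibility of the peaks named for *Cd6* stood beside lower *Cd6* mRNA, but among all 7 peaks in or within 10 kb of the gene body, whatever their gene name, 4 were higher and 3 lower. The lncRNA gene *A430093F15Rik* lies within the interval, and was chosen after its values were seen. Of its 9 peaks 8 were lower in UTX TCD, down to -1.41, and its RNA went from 784, 1053 and 843 normalized counts in WT to 346, 347 and 522 in UTX TCD (log2 fold change -1.16 ± 0.18, limma adjusted p = 0.000979).

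**Figure D4:**
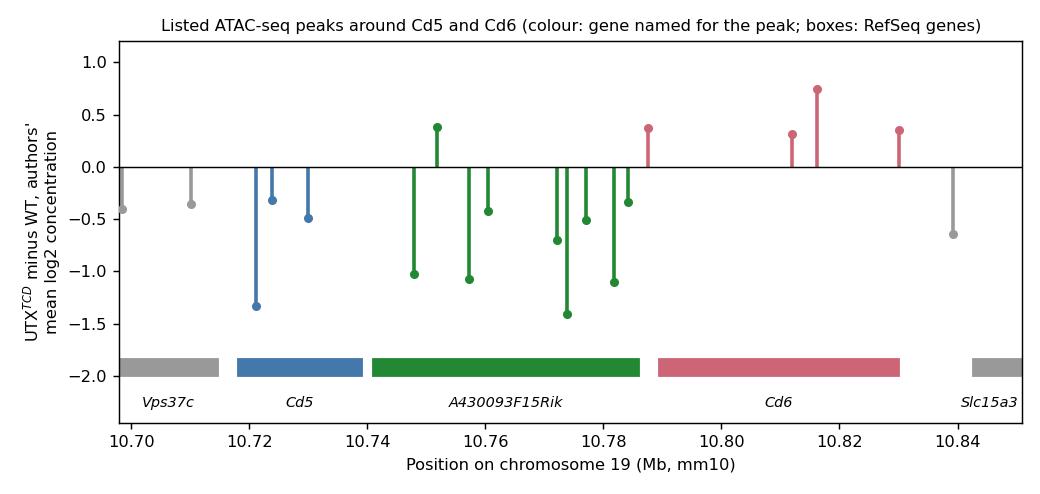
Map of chromosome 19 around *Cd5* and *Cd6*, with position in Mb (mm10) on the horizontal axis and the difference in the authors' mean log2 concentration (UTX TCD minus WT) of each listed peak on the vertical axis. Boxes are RefSeq genes and colours give the gene named for each peak. Peaks of *Cd5* and 8 of 9 peaks of *A430093F15Rik* point down, and the 4 peaks of *Cd6* point up.

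*Cblb* had the most listed peaks, 9, all of them in its introns, and 7 were lower in UTX TCD. The largest difference was -1.50, in intron 3 of 17 (chr16:52059481-52059881, mean log2 concentration 8.98 in WT and 7.48 in UTX TCD), 28132 bp from the start site. Within that same intron another peak, at chr16:52056192-52056592, was higher by 0.34. *Cblb* mRNA did not pass the adjusted p. *Cbl* had 1 lower peak, at -0.65 in intron 2 of 15 (chr9:44194076-44194476), and 1 higher peak.

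Both promoter peaks of *Ptpn6* were lower, by values of -0.23 at chr6:124732959-124733359 and -0.38 at chr6:124738707-124739107. Their mean log2 concentrations in WT were 11.03 and 10.13. *Ptpn2* had a peak in intron 2 of 9 that was higher by 1.78, from 7.06 to 8.85, and an intergenic peak 9064 bp upstream of its start that differed by -1.18, from 8.07 to 6.89. These were the largest higher difference and one of the 3 largest lower ones among the 30 peaks. The single peak of *Ptpn22*, over exon 13 of 21 (chr3:103885960-103886360), was higher by 0.28. The 3 *Dgka* peaks were all higher, the promoter peak (chr10:128744691-128745091) by 0.25 from 10.97 and the intron 11 of 25 peak (chr10:128732011-128732411) by 0.46, in the same direction as its mRNA. *Dgkz* had 2 higher and 2 lower peaks. The largest difference, 0.78, was at chr2:91976142-91976542, which the authors' annotation calls intergenic and which overlaps the start of the RefSeq gene. One of the lower *Dgkz* peaks lies in an exon of *Creb3l1*.

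The TCF/LEF letters were searched because T_prog_ cells express *Tcf7*, whose product TCF1 binds such sites. CTTTGAA was found on either strand in 4 of the 30 peaks of the negative regulators (13.3%), against 11.8% of all 23907 listed peaks of 401 bp on the numbered and sex chromosomes. The STAT letters TTCNNNGAA were in 4 (all peaks 11.9%), the RUNX letters TGTGGTT in 1 (17.7%) and the ETS letters CCGGAAG in 1 (5.00%). RefSeq promoters of 300 bp were matched for 8 of the 10 genes, with 13 entries; *Cd6* and *Ptpn2* had none. Of these 13, 0 held the TCF/LEF letters (all 32851 promoters, 5.14%), 0 the ETS letters (8.86%), 1 the STAT letters (8.30%) and 1 the RUNX letters (5.27%), the last 2 in *Ptpn22*. A match is a description of letters only.

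The 4 peaks with TCF/LEF letters lie at *Cblb*, *Cd5* and *Cd6* and are shown because they include lower and higher peaks at genes of the same role. The *Cblb* peak with the largest difference is shown with them, as the strongest change in that gene. Each stretch is 201 bases of the plus strand of mm10 from the RefSeq GRCm38.p6 genome, 5′ to 3′, free of annotated exons, with matched letters in capitals (TTCAAAG is CTTTGAA on the other strand). In order, the stretches come from *Cblb* intron 2 (peak difference -0.57), *Cblb* intron 3 (-1.50, with no match), a further part of *Cblb* intron 3 (-0.32), *Cd5* intron 5 of 10 (-0.32, with 2 matches) and the intergenic peak assigned to *Cd6* (0.37).
*Cblb*, chr16:52039703-52039903: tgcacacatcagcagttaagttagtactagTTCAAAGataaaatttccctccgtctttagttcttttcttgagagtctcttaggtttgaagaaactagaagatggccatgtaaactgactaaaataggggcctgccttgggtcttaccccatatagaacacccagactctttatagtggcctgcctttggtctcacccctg
*Cblb*, chr16:52059581-52059781: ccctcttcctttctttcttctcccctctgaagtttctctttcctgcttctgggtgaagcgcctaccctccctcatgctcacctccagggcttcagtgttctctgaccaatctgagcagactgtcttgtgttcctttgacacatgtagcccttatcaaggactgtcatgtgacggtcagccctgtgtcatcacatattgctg
*Cblb*, chr16:52086800-52087000: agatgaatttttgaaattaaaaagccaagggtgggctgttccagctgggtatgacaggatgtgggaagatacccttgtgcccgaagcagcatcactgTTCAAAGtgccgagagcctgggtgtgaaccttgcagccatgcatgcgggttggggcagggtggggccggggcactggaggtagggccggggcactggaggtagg
*Cd5*, chr19:10723756-10723956: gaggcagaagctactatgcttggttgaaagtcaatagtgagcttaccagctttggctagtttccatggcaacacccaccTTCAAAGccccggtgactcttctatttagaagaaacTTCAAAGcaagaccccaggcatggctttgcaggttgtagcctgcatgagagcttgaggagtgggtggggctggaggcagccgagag
*Cd6*, chr19:10787527-10787727: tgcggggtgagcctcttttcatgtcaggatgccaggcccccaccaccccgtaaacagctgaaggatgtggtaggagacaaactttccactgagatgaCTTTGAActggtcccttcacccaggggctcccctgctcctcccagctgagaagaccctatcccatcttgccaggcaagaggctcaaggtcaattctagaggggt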

How the data were processed

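The authors aligned RNA-seq reads to mm10 with HISAT2 2.2.1, counted them by featureCounts and applied DESeq2. Each deposited RNA-seq signal is a gene's read count divided by 1 size factor per library. For ATAC-seq the authors used Bowtie2, Picard, MACS2, DiffBind and HOMER, and the deposited log2 concentration is 1 mean per genotype and peak. A shift for the transposase, the gene annotation and the strand setting are not given in the sources used here. Deposited fold changes, standard errors, p-values and FDR of the authors' comparisons were not used.

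With limma 3.58.1 (R 4.3.3; lmFit, eBayes with trend), log2(normalized count + 1) was compared between genotypes for the 14459 genes whose mean reached 10, adjusting p by Benjamini-Hochberg over all of them. Fold changes on this scale understate low genes. The script was tested on simulated data. Dividing by each library's smallest step gave whole reads for 100% of values, within 0.05 of a step. The step of WT replicate 1 (0.991) fell inside a margin around 1 set for recovered reads and that of WT replicate 2 (0.987) just outside it, so replicate 1 was kept out of the count tests although its values were also whole, and edgeR 4.0.16 and DESeq2 1.42.0 ran on 5 libraries, a choice made after seeing the data, as was the motif search in peaks. The 10 genes and all lists were chosen with earlier results of these data known. Named genes were the 10, *Kdm6a*, markers of CD8+ T cells, progenitors and the sort gates, and the top marker of each other cell type. Up to 3 called genes per direction and list whose genotypes did not overlap were also named. *Sla2*, *Cd79b*, *Fcgr3*, *S100a8*, *A430093F15Rik* and genes that overlap the 10 or their peaks fall outside this rule and were chosen after values or positions were seen. Exon lengths were the union of all annotated exons of a gene in RefSeq GRCm38.p6, the build of mm10. Alternatives covered pseudocounts, filters, scaling, fold limit, replicate block, left-out libraries and peak limits.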

Additional observations from a re-analysis of the deposited data

How the results depend on the processing

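Results for the 10 genes were recomputed under other settings. Across every setting run, limma, edgeR and DESeq2 called 0 of the 10, and *Ptpn2* stayed past the adjusted p. With a replicate block, the same 3 genes passed (1 higher, 2 lower), 5702 genes passed in all, and no call of the 10 genes changed. Deviations of same-numbered libraries correlated at 0.305, -0.200 and 0.0897, and those of other numbers from -0.3245 to 0.2938. With 3 libraries per genotype, these values cannot tell whether the numbers pair the samples.

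Leaving out 1 library at a time gave 0 to 1 genes past the adjusted p higher and 1 to 3 lower, a median log2 fold change of the 10 from -0.0215 to 0.0251, 2 to 4 other brakes called lower, 1 to 2 proximal genes called lower, and 1 to 3 antigen response genes called higher. *Cblb* turned to 0.0299 without WT replicate 2, and to 0.0180 and 0.0349 without UTX TCD replicates 1 and 2 (range -0.13 to 0.03). *Dgka* lost the adjusted p without WT replicate 2 (0.0739), WT replicate 3 (0.0620) and UTX TCD replicates 1 (0.0982) and 2 (0.0766), all by limma.

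Scaled to the same sum, 2 of the 10 passed higher and 1 lower, their median was 0.0618 (all genes 0.0619), 2 other brakes were called higher and 2 lower, and *Cblb* was at 0.0370. TMM scaling gave a median of -0.0168. A filter at a mean of 100 removed *Syk*, leaving 0 proximal genes called higher. On 5 libraries, chosen after seeing the data, 1 gene passed lower with edgeR and with DESeq2, 1 antigen response gene was called higher, the medians were -0.0240 and -0.0141, and *Ptpn6* was at -0.00634 with edgeR. The same tests on all 6 libraries were not run.

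Peaks over 0.5 in absolute difference numbered 4 higher and 9 lower, over 1 numbered 1 and 3, and within 10 kb of the start site 3 and 6. Peaks in or within 10 kb of the gene bodies, whatever their gene name, numbered 21 higher and 26 lower. Beyond what fewer libraries or stricter limits give by construction, the cause of these shifts was not tested. With 3 libraries per genotype, the widest 95% interval of a log2 fold change among the 10 was that of *Ptpn22*, -0.07 to 0.55.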
